A study of Homo sapiens with 15 samples.

Results

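TRAIL, FAS and the genes that carry a death receptor signal were described in 15 RNA-sequencing libraries of HCC1954, a human HER2-positive breast cancer cell line. The 10 genes, of 19845 names in the tables, were the ligand TNFSF10, its receptors TNFRSF10A, TNFRSF10B, TNFRSF10C, TNFRSF10D and TNFRSF11B, the receptor FAS, the adaptor FADD, the initiator caspase CASP8 and its inhibitor CFLAR. They were chosen by the values of TNFSF10, which earlier results on these libraries showed to differ between groups, so its differences are given as a description with no test. The groups were the parental line (Pa, 3 libraries), brain-tropic cells of synchronous metastases (S-BM, 4), brain-tropic latent or residual cells (Lat, 4) and brain-tropic cells of metachronous metastases (M-BM, 4). All 4 groups stem from the same cell line and were cultured in R3F overnight before RNA was taken, so none of the values was measured in brain tissue. No label says if replicates come from different cultures or animals, and p-values therefore measure only the spread between these libraries, which may be technical.

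TRAIL, the product of TNFSF10, and FAS ligand are members of the tumour necrosis factor family that trigger apoptosis from outside the cell. They bind receptors with a cytoplasmic death domain, which recruit the adaptor FADD and the initiator caspases CASP8 and CASP10, and activated caspases then cleave the executioners or cut BID to engage mitochondria. Decoy receptors bind TRAIL without passing the signal on, and CFLAR (also called c-FLIP) occupies the receptor complex and restrains caspase activation. In breast cancer cells the pathway is known as a route by which immune cells and TRAIL itself can kill, and TNFSF10 is known as an interferon-responsive gene.

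The ligand was low where its main receptors were high. TNFSF10 stood at 103.3 ± 36.8 (SD, n = 4) in S-BM, at 1.45 ± 1.08 in Lat and at 7.26 ± 7.11 in M-BM, as normalized counts; in bulk RNA, fewer cells with a transcript and less of it per cell cannot be told apart. Both TRAIL receptors with a death domain, TNFRSF10A and TNFRSF10B, rose in Lat and in M-BM relative to S-BM, whereas FAS and CFLAR fell. FADD and CASP8 did not pass the test in either comparison. Of the 6 genes tested other than TNFSF10, 4 were called (limma, adjusted p under 0.05) in Lat minus S-BM, 2 higher and 2 lower, beside 59.7% of all 9646 genes tested (30.2% higher and 29.4% lower). The same count, 4 with 2 in each direction, was found in M-BM minus S-BM, beside 52.7% of all genes (26.9% higher and 25.8% lower). These shares are close to the background, and the 2 comparisons share the S-BM libraries. FAS, 1 of the 2 lower genes in each, passed the filter on low values through S-BM alone, so that its direction was fixed by the filter; the counts are a description. In M-BM minus Lat, none of the 6 was called by limma, beside 0.145% of all genes, and 1 (FADD) had an unadjusted p under 0.05. edgeR and DESeq2 on recovered reads also called none.

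Each library of S-BM, Lat or M-BM held 13.25 to 21.84 M reads assigned to genes and each Pa library 15.51 to 18.66 M, and 3 reads corresponded to a value of 0.136 to 0.225 (counting error only). M-BM 4 stood apart from the other M-BM libraries, at 5.4 on a first principal component where these scored 20.7 to 26.1, Lat libraries at least 26.0 and S-BM libraries at most −41.6. ERBB2, which encodes HER2, stood at 353.1 in S-BM 3, 367.3 in S-BM 4, 4109 in S-BM 1 and 4642 in S-BM 2. All 7 epithelial markers were detected in each group, with sums of 5901 to 12061, while the astrocyte marker GFAP was at or under 3 reads in every library, as was the lymphocyte marker CD3E. Only 1 of 2 listed astrocyte markers and 2 of 3 neuron markers were among the names. The neuron markers summed to 0.066 to 0.655 in Pa, 0.354 to 2.97 in S-BM, 1.11 to 4.4 in Lat and 1.265 to 2.43 in M-BM. Of these, SNAP25 was at or under 3 reads in every library. Summed immune markers (5 genes) ranged from 9.21 to 26.3 in S-BM, against 8.69 to 31.0 in Lat and 9.8 to 16.1 in M-BM, mainly CD68. The 2 endothelial markers summed to 5.12 to 15.4 in S-BM, against 2.02 to 4.04 in Lat and 3.50 to 6.52 in M-BM, and the 2 fibroblast markers to 3.25 to 6.46, 5.98 to 21.3 and 5.85 to 11.02 in the same order. Lat 3 held the Lat maximum of both lists (CD68 30.9 and COL1A1 20.7, against at most 10.4 and 7.11 in the other Lat libraries). Its reads differed from those of the other Lat libraries by a chi-square of 36.7 to 42.1 per degree of freedom, where these differed among themselves by 3.88 to 13.3. The part of these markers in any difference was not tested.

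**Figure D1:**
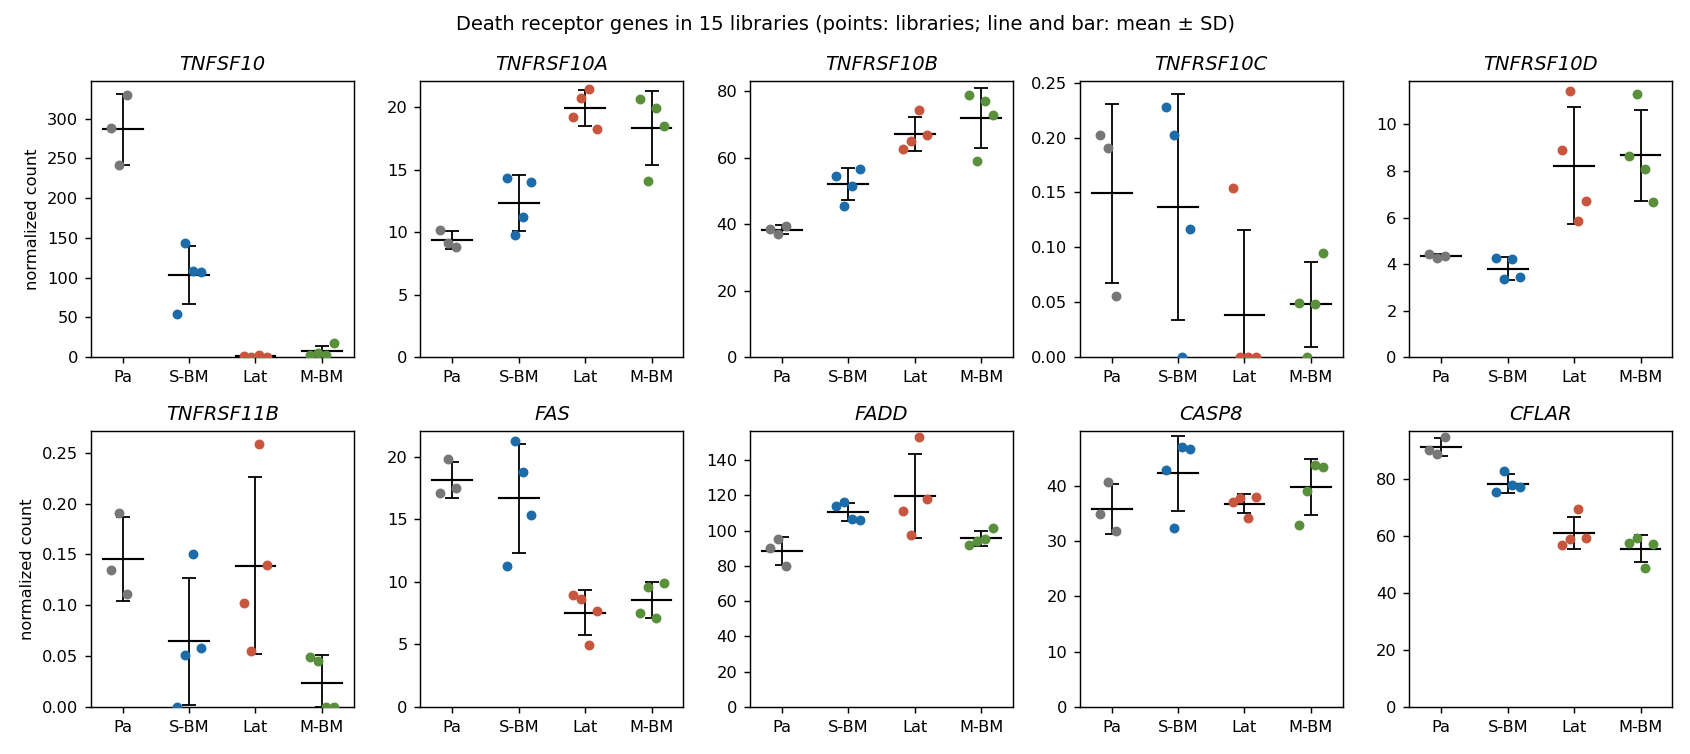
Normalized count (y axis, linear from 0) of each of the 10 genes in every library of Pa, S-BM, Lat and M-BM, with Pa values multiplied by 1.0183 and lines and bars giving mean ± SD (bars end at 0 where they would pass it). TNFSF10 is at 0.697 to 3.003 in Lat, TNFRSF10A and TNFRSF10B stand above S-BM in Lat, and TNFRSF10C and TNFRSF11B stay under 0.26 in all 15 libraries.

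TNFSF10 lies on chromosome 3 (172505508 to 172523430, minus strand, GRCh38). Its normalized counts were 54.1, 143.1, 108.5 and 107.4 in S-BM 1 to 4. In Lat 1 to 4 they were 1.39, 0.720, 3.003 and 0.697, from 108 reads in all 4 libraries together. In M-BM 1 to 4 they were 3.30, 5.33, 2.63 and 17.8. Every Lat and M-BM library lay under every S-BM library, and M-BM 4 was the highest of the 8. S-BM 1 was the lowest of its group, and the S-BM libraries with little ERBB2 lay between the other two. On the log2(value + 1) scale the difference was −5.42 (SE 0.46) for Lat minus S-BM, a 42.9-fold lower level, and −3.91 (SE 0.46), or 15.01-fold, for M-BM minus S-BM. Because the Lat values are low, this size depends on the added constant: with 5 in place of 1 the Lat difference was −4.01, and edgeR on recovered reads gave −6.11. Between M-BM and Lat the difference was 1.51, with overlapping libraries, and 1.01 without M-BM 4; without that library the M-BM difference from S-BM was −4.41. The gene passed the filter on low values (at least 10 in 4 of 12 libraries) through the 4 S-BM libraries and M-BM 4.

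Parental cells held the highest level of TNFSF10. After scaling to the other table, the 3 Pa libraries stood at 288.0, 241.4 and 329.8, above all others. The Pa mean was 2.77 times that of S-BM, 197.3 times that of Lat and 39.4 times that of M-BM; Pa comes from a table normalized separately, so these are levels without a test. The order of the means was thus Pa, S-BM, M-BM and Lat, and only M-BM and Lat, neighbours at the low end, overlapped. Per kilobase of exon, the S-BM level of TNFSF10 (52.9) was above those of all 5 of its receptors there, of which TNFRSF10B was the highest at 12.5. In Lat TNFSF10, at 0.743 per kilobase, stood under TNFRSF10A (7.33), TNFRSF10B (16.2) and TNFRSF10D (2.32).

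The promoters of TNFSF10, FAS and CASP8 are shown to set the ligand and the receptor that were low in Lat and M-BM beside a gene of the same pathway that did not pass the test. They are RefSeq promoters of GRCh38.p14, 250 bases before to 50 after a start, 5′ to 3′ on the gene's strand; capitals mark every match to a motif searched.
TNFSF10 (chr3:172523381-172523680, minus strand): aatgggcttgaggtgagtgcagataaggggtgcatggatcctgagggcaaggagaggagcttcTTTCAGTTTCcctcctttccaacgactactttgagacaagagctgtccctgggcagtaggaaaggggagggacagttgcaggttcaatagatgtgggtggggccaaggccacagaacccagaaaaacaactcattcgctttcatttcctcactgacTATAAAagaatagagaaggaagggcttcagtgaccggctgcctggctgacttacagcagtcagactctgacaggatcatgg
FAS (chr10:88990548-88990847, plus strand): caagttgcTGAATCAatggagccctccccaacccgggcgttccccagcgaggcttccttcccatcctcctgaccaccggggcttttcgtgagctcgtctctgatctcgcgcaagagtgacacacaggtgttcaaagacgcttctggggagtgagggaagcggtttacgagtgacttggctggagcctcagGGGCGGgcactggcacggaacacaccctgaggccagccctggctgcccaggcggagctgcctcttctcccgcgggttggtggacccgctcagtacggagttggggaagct
CASP8 (chr2:201233213-201233512, plus strand): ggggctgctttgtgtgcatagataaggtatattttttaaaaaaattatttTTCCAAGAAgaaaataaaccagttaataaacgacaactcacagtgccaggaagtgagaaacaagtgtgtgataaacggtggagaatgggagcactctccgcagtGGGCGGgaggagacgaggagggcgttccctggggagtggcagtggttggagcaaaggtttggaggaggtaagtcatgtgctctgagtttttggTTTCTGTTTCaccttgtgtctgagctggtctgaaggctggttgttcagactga

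Of the 10 genes, 5 had a listed promoter (TNFSF10, FAS, FADD, CASP8 and CFLAR), and for genes with several starts the one nearest the annotated start was used. The motifs were searched on both strands in all 35114 listed promoters, and a match is a description only. The interferon response element, searched as GAAA, any pair of bases and GAAA again, matched at −187 in the TNFSF10 promoter, on the minus strand, and at −3 in that of CASP8, and occurred in 3.57% of all promoters. A TATA box, searched as TATAAA, lay at −31 in the TNFSF10 promoter and occurred in 11.5% of promoters. The CASP8 promoter held a match to the STAT letters TTCNNNGAA at −200 (7.66% of promoters), and the FAS promoter a match to the AP-1 letters TGANTCA at −242 (7.71%). The SP1 box GGGCGG, present in 45.0% of promoters, was found in those of FAS and CASP8 but not in that of TNFSF10. Promoters of FADD and CFLAR held neither the interferon letters nor a TATA box. The start used for CFLAR, the nearest of 4 listed, lay 2612 bases from the annotated start. Its promoter therefore does not describe the sequence at the annotated start. The TNFSF10 promoter was 51.0% GC with a ratio of observed to expected CpG of 0.16, where the medians over all promoters were 58.7% and 0.58. That ratio was 0.6 for FAS and 0.44 for CASP8.

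Among all tested genes, those whose log2 values followed TNFSF10 most closely over the 12 libraries tested were SLC1A1, a glutamate transporter (Pearson r = 0.985), PLD1, a phospholipase (0.984), PGM2L1 (0.984), PERP, a desmosomal protein (0.984), and LRRC8B, a volume-regulated channel subunit (0.983). SLC1A1 averaged 121.1 in S-BM, against 17.4 in Lat and 29.8 in M-BM, and PLD1 averaged 48.9, 13.6 and 18.8 in that order. The most opposite were DDX31 (−0.98), URM1 (−0.977), RABEPK (−0.975), PHF8 (−0.975) and LINC00493 (−0.973). These correlations are a description over 12 libraries that fall into 2 sets, with S-BM in one and Lat and M-BM in the other, so any gene that differs between the sets with little spread ranks high. Among regulators listed for the pathway, r with TNFSF10 was 0.965 for FOXO1, 0.919 for STAT2, 0.819 for IRF9 and 0.78 for IRF1. None of the listed promoters of SLC1A1, PLD1, PGM2L1, PERP and LRRC8B held the interferon letters.

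Of the 8 genes listed around TNFSF10, 4 were tested. PLD1 (chromosome 3, 171600404 to 171810483) fell, with log2 differences of −1.77 in Lat and −1.34 in M-BM relative to S-BM (adjusted p = 5.11e-07 and 6.75e-06), and FNDC3B, the nearest tested gene on that side, fell by 1.19 and 0.81 on the log2 scale. On the other side NCEH1 (−0.04 and −0.22) and ECT2 (−0.11 and −0.12) did not pass the test. The difference of TNFSF10 was larger than that of any tested neighbour, but its values led to the choice of the genes, so nothing is read from this. Calls among neighbours, here and at the other loci, stand beside 30.2% higher and 29.4% lower of all genes tested in Lat. In M-BM these shares were 26.9% higher and 25.8% lower.

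**Figure D2:**
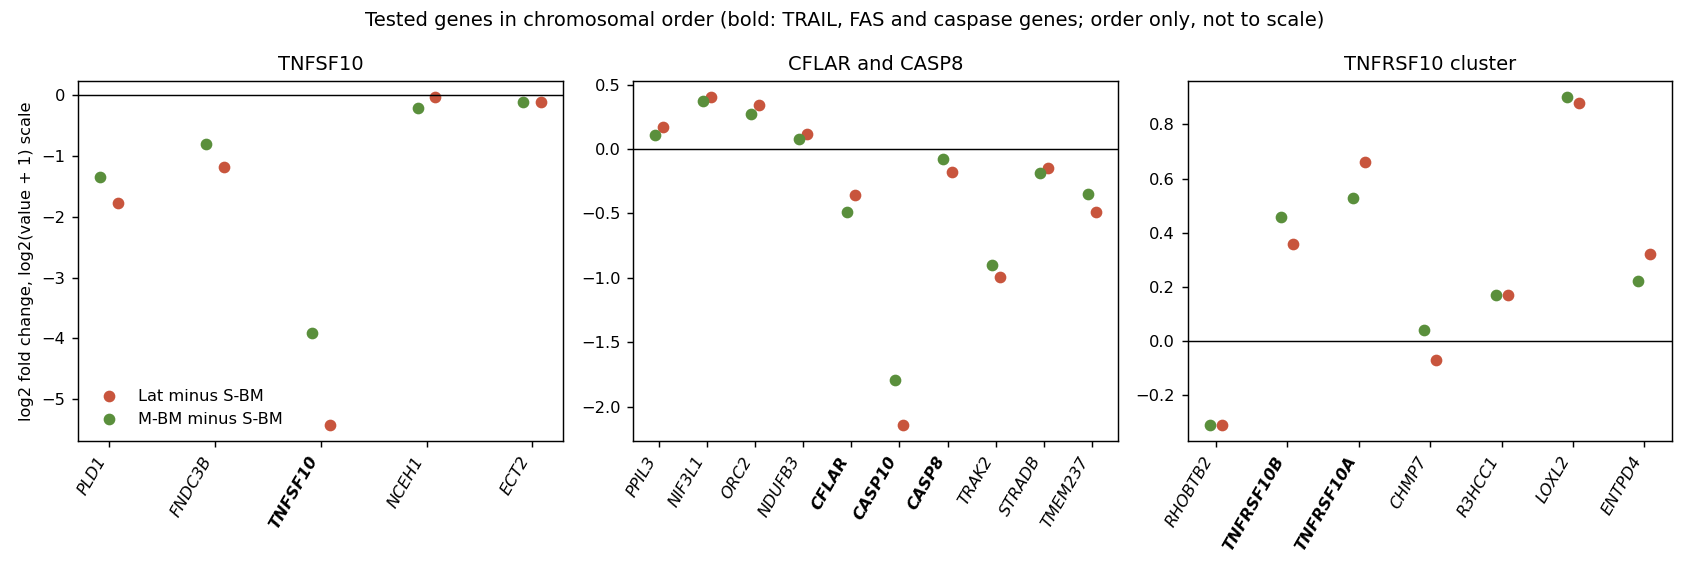
Difference from S-BM on the log2(value + 1) scale (y axis) for tested genes in chromosomal order (x axis, not to scale) around TNFSF10, CFLAR with CASP8, and the TNFRSF10 genes, with Lat in red, M-BM in green and pathway genes in bold. TNFSF10, which led to the choice of the genes, is at −5.42 in Lat. Its tested neighbours lie between −1.77 and −0.04 in Lat, and CASP10 reaches −2.14 between CFLAR and CASP8.

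TNFRSF10A, which encodes the death domain receptor DR4 (chromosome 8, 23190452 to 23225102, minus strand), rose. Its values were 14.4, 9.77, 11.2 and 14.02 in S-BM 1 to 4 and 19.2, 20.7, 21.4 and 18.3 in Lat 1 to 4. M-BM 1 to 4 held 20.6, 14.1, 19.95 and 18.5. All Lat libraries lay above S-BM, while M-BM 2 fell within the S-BM range. The log2 difference was 0.66 (SE 0.15, adjusted p = 0.00147) for Lat and 0.53 (SE 0.15, adjusted p = 0.00751) for M-BM. In Pa the mean was 9.35 ± 0.73 (SD, n = 3), which overlapped S-BM and lay under every Lat and M-BM library.

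TNFRSF10B, which encodes DR5, the other TRAIL receptor able to signal death (chromosome 8, 23020133 to 23069031, minus strand), was the most abundant TRAIL receptor in all 4 groups, per kilobase of exon. Its values were 54.4, 45.6, 51.4 and 56.5 in S-BM 1 to 4, and 62.5, 64.9, 74.2 and 66.7 in Lat 1 to 4. Among M-BM libraries 1 to 4 they were 78.8, 59.0, 76.9 and 72.7. Neither Lat nor M-BM overlapped S-BM, and the log2 differences were 0.36 (SE 0.11, adjusted p = 0.00956) and 0.46 (SE 0.11, adjusted p = 0.00285). Pa libraries (36.9 to 39.5) lay under all others. The order of the TNFRSF10B means was Pa (38.3), S-BM (52.0), Lat (67.1) and M-BM (71.9), of which Lat and M-BM overlapped (log2 difference 0.09, 95% interval −0.14 to 0.32, adjusted p = 0.797). Its 3′ neighbour RHOBTB2 overlaps the end of the gene, and the library kit does not mark strand, so reads there cannot be told apart.

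The decoy receptors were low. TNFRSF10D, a decoy with a truncated death domain (chromosome 8, 23135588 to 23164027), stood at 4.27, 3.34, 4.199 and 3.43 in S-BM 1 to 4. It was at 8.88, 11.5, 5.85 and 6.70 in Lat 1 to 4 and at 8.67, 11.3, 8.08 and 6.66 in M-BM 1 to 4, all above the S-BM range. With 2 libraries at or above a value of 10 it did not pass the filter. When the filter was set at 1, it rose in Lat by 0.91 and in M-BM by 0.99 on the log2 scale (adjusted p = 0.00123 and 0.000824). Pa libraries, 4.26 to 4.45 after scaling, overlapped S-BM and lay under Lat and M-BM. TNFRSF10C, a decoy anchored in the membrane by a lipid, had 10 reads over the 4 S-BM libraries, 3 over Lat, 4 over M-BM and 7 over Pa. TNFRSF11B, which encodes the soluble receptor osteoprotegerin, had 4, 10, 2 and 7 reads in the same order. No fold is given for these 2, whose highest library held 0.228 and 0.259.

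Ratios within a library set the TRAIL receptors against one another. The ratio of TNFRSF10A to TNFRSF10B was 0.236 ± 0.024 (SD, n = 4) in S-BM, against 0.297 ± 0.020 in Lat, where no library overlapped S-BM, and 0.253 ± 0.011 in M-BM, which did overlap. The ratio of the decoy TNFRSF10D to TNFRSF10B was 0.0735 ± 0.0092 in S-BM, against 0.125 ± 0.044 in Lat and 0.125 ± 0.045 in M-BM, and Lat 3 (0.0788) lay within the S-BM range. TNFRSF10A and TNFRSF10B had a Pearson r of 0.92 over the 12 libraries, and each was inversely related to TNFSF10 (−0.85 and −0.74). S-BM stands apart from Lat and M-BM in these libraries, so any pair of genes that differ between them with little spread gives a large r. For TNFRSF10A and FAS it was −0.92. The r values are a description, and nothing particular to the ligand and its receptors is read from them. Of 5 tested genes around the receptor cluster, LOXL2, a lysyl oxidase (0.88 and 0.9), and ENTPD4 (0.32 and 0.22) rose in both comparisons. None was called lower, and RHOBTB2 was at −0.31 in each (limma, adjusted p = 0.0525 and 0.0594). Of all genes tested, 30.2% were higher in Lat and 26.9% in M-BM, and nothing is read from 5 genes.

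FAS, the receptor of FAS ligand (chromosome 10, 88964050 to 89017059, plus strand), fell. Its values were 11.3, 21.3, 18.7 and 15.4 in S-BM 1 to 4, and 8.94, 8.58, 4.97 and 7.67 in Lat 1 to 4. In M-BM 1 to 4 they were 7.53, 9.58, 7.10 and 9.89. All Lat and M-BM libraries lay under S-BM 1, the lowest of S-BM. The log2 difference was −1.04 (SE 0.21, adjusted p = 0.000723) for Lat, a 2.06-fold fall, and −0.87 (SE 0.21, adjusted p = 0.00336) for M-BM, 1.82-fold. FAS passed the filter of 10 through S-BM alone, where all 4 libraries were above it and no other library was, so under that filter its call could arise only as a fall from S-BM. With no filter, which does not depend on the groups, the adjusted p was 0.0020 for Lat and 0.00785 for M-BM. Of all genes tested, 7.66% were called with at least a 2-fold fall in Lat and 5.52% in M-BM. Pa libraries (17.1 to 19.8) overlapped S-BM and lay above Lat and M-BM.

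FAS shares its locus with other genes. ACTA2, a smooth muscle actin on the opposite strand, overlaps it to 88991337 and did not pass the test (0.35 in Lat and −0.82 in M-BM), and reads in the overlap cannot be assigned to a strand. Of 6 tested neighbours, LIPA, a lysosomal lipase (−1.31 and −1.01), and the interferon-induced IFIT3 (−0.97 and −0.75) fell in both comparisons, IFIT2 fell in Lat (−0.71) and STAMBPL1 rose (1.31 and 1.23). The genes most like FAS over the 12 libraries were ITSN1 (r = 0.978), KIF20A (0.976) and KTN1 (0.968), and the most opposite C1orf35 (−0.975), FAM86EP (−0.966) and NOL12 (−0.962). As for TNFSF10, these r values are a description of libraries in which S-BM stands apart from Lat and M-BM. FAS ligand itself (FASLG) had at most 1 read in any of the 15 libraries.

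**Figure D3:**
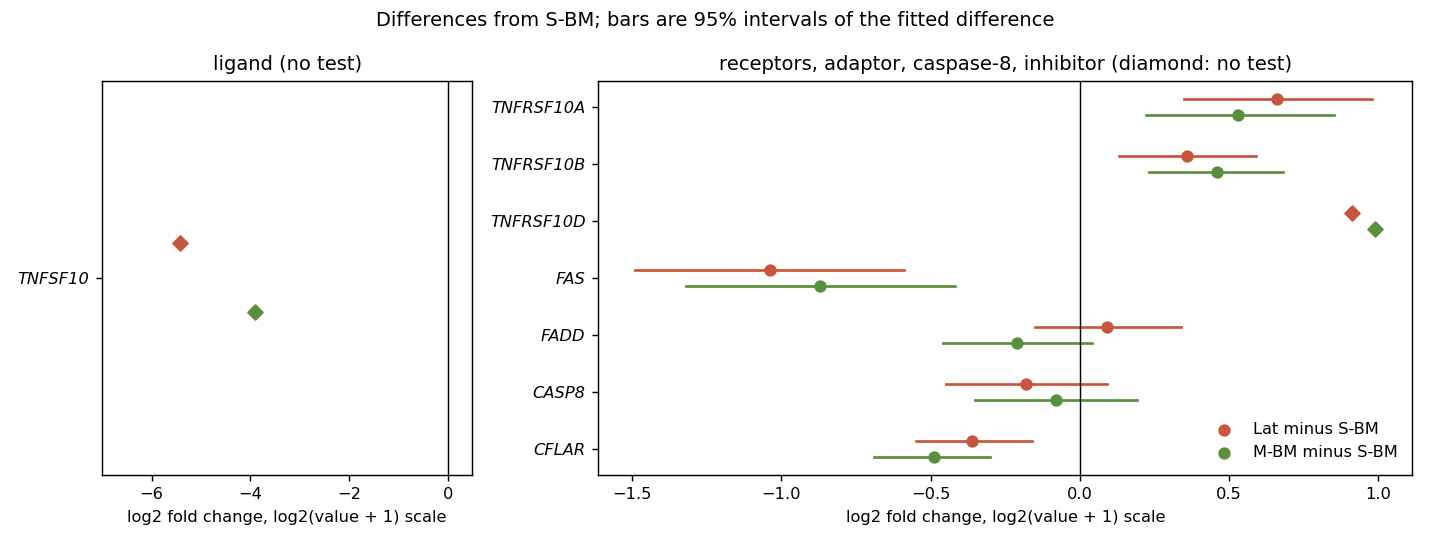
Difference from S-BM (x axis, log2(value + 1) scale) for Lat in red and M-BM in green, with bars for the 95% interval of the fitted difference and diamonds for values without a test (TNFSF10, which led to the choice of genes, and TNFRSF10D, under the filter). TNFRSF10A and TNFRSF10B lie to the right of 0, FAS and CFLAR to the left, and the intervals of FADD and CASP8 include 0.

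FADD, the adaptor that links death domains to caspases (chromosome 11, 70203296 to 70207390), stood above CASP8, FAS and every TRAIL receptor per kilobase of exon, at 60.2 in S-BM, against 65.1 in Lat and 51.9 in M-BM. Its values were 114.2, 116.1, 106.5 and 106.3 in S-BM 1 to 4, and 111.1, 97.4, 153.0 and 117.7 in Lat 1 to 4. M-BM 1 to 4 stood at 91.6, 94.2, 95.2 and 101.6. Lat 3 was the highest of its group, and all M-BM libraries lay under S-BM. The log2 difference was 0.09 for Lat (95% interval −0.15 to 0.34, adjusted p = 0.502) and −0.21 for M-BM (−0.46 to 0.04, adjusted p = 0.139). Without Lat 3 the M-BM difference passed (adjusted p = 0.0424). The other 4 tested genes at the locus all fell in M-BM: ANO1 (−1.37), CTTN (−0.93), SHANK2 (−0.86) and PPFIA1 (−0.36), and in Lat all but PPFIA1 did. Of all genes tested, 25.8% were lower in M-BM and 29.4% in Lat, and nothing is read from 4 genes.

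CASP8, the initiator caspase of both receptors (chromosome 2, 201233463 to 201287711, plus strand), did not pass the test. Its values were 42.9, 32.4, 47.1 and 46.6 in S-BM 1 to 4, and 37.0, 37.8, 34.3 and 38.0 in Lat 1 to 4. In M-BM 1 to 4 they were 32.9, 39.0, 43.8 and 43.5. S-BM 2 was the lowest of all 12 libraries, and the groups overlapped. The log2 difference was −0.18 for Lat (95% interval −0.45 to 0.09, adjusted p = 0.229) and −0.08 for M-BM (−0.35 to 0.19, adjusted p = 0.625). Without S-BM 2 the Lat difference was −0.30 and passed (adjusted p = 0.0276). Pa libraries (31.9 to 40.8) overlapped all 3 other groups.

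CFLAR, the inhibitor of caspase activation (chromosome 2, 201116164 to 201176687, plus strand), fell. Its values were 75.2, 82.7, 77.8 and 77.2 in S-BM 1 to 4, and 56.8, 58.9, 69.3 and 59.1 in Lat 1 to 4. The M-BM libraries, 1 to 4, had 57.3, 59.1, 48.7 and 56.9. Neither Lat nor M-BM overlapped S-BM, and the log2 differences were −0.36 (SE 0.091, adjusted p = 0.00391) and −0.49 (SE 0.091, adjusted p = 0.00053). Pa, at 91.0 ± 3.0 (SD, n = 3), lay above every other library. The order of the CFLAR means was Pa, S-BM, Lat and M-BM, and only Lat and M-BM overlapped. An antisense transcript, CFLAR-AS1, lies inside the gene at means of 0.459 (S-BM), 1.89 (Lat) and 1.40 (M-BM). Gene models of CFLAR differ widely in length, so its level per kilobase is not given.

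CASP10, the close relative of CASP8 that the receptors also recruit, lies between CFLAR and CASP8 (chromosome 2, 201183141 to 201229406) and is not among the 10 genes. Its values were 87.2, 95.7, 115.2 and 118.7 in S-BM 1 to 4, and 22.8, 23.6, 23.0 and 21.6 in Lat 1 to 4. In M-BM 1 to 4 they were 20.1, 34.2, 25.0 and 42.1, with M-BM 4 the highest, as for TNFSF10. It fell 4.397-fold in Lat (log2 difference −2.14, SE 0.18, adjusted p = 8.89e-07) and 3.45-fold in M-BM (−1.79, adjusted p = 6.14e-06). The ratio of CASP10 to CASP8 within a library was therefore 2.50 ± 0.38 in S-BM (SD, n = 4), against 0.620 ± 0.043 in Lat and 0.757 ± 0.195 in M-BM, and 2.76 ± 0.14 in Pa (n = 3). In normalized counts, CASP10 stood above CASP8 in every Pa and S-BM library and below it in every Lat and M-BM library. The counts are not corrected for gene length, so they do not give which transcript was more abundant. CFLAR to CASP10 stood at 0.763 ± 0.116 in S-BM, against 2.68 ± 0.25 in Lat and 1.97 ± 0.63 in M-BM, without overlap between S-BM and the other two, whereas CFLAR to CASP8 overlapped among S-BM (1.90 ± 0.44), Lat (1.67 ± 0.24) and M-BM (1.42 ± 0.27). The other tested genes at this locus went both ways: NIF3L1 and ORC2 rose, and TRAK2 and TMEM237 fell, of 7.

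**Figure D4:**
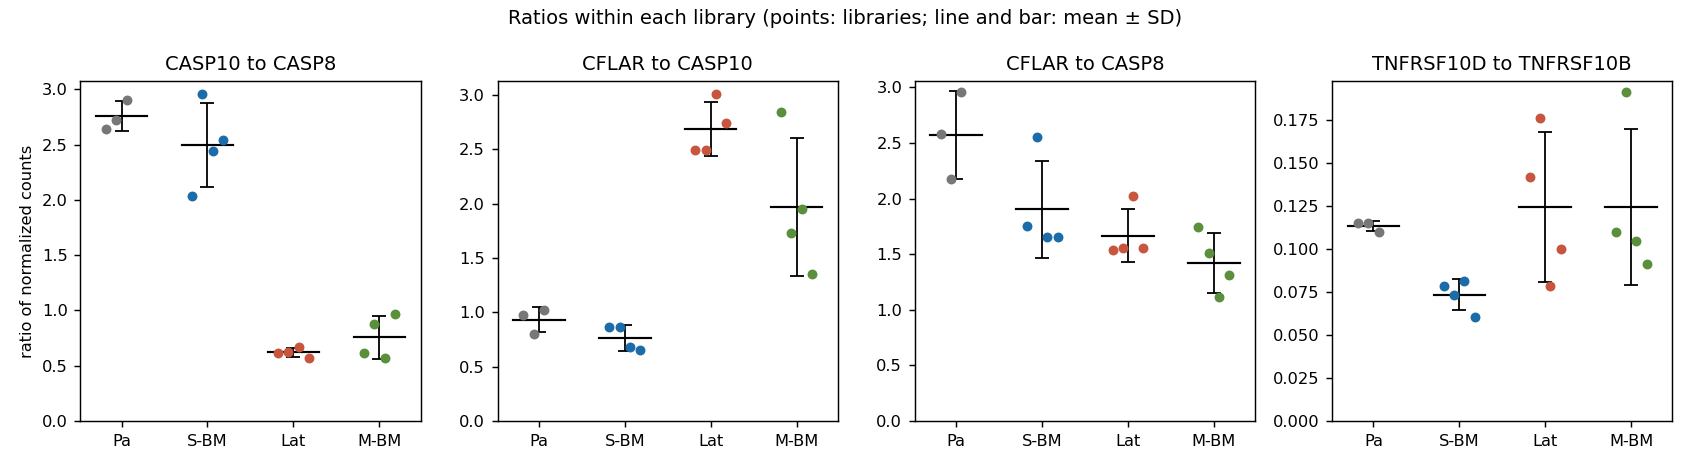
Ratios of normalized counts within each library (y axis, linear from 0; points are libraries, lines and bars mean ± SD; not corrected for gene length) in Pa, S-BM, Lat and M-BM. CASP10 to CASP8 is above 2 in all Pa and S-BM libraries and under 1 in all Lat and M-BM libraries, and CFLAR to CASP10 is at most 1.018 in the former and at least 1.353 in the latter.

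Overlap between groups was counted over the same genes. Of the 6 tested genes other than TNFSF10, 4 did not overlap between Lat and S-BM (TNFRSF10A, TNFRSF10B, FAS and CFLAR), where 54.5% of all genes tested did not, and 4 between M-BM and S-BM (TNFRSF10B, FAS, FADD and CFLAR), where 46.2% did not. FAS passed the filter through S-BM alone, and nothing is read from these counts. TNFSF10, which led to the choice of the genes, and TNFRSF10D, which was not tested, did not overlap in either comparison and stand outside these counts. Between M-BM and Lat none of the 6 failed to overlap, beside 7.3% of all genes. The comparisons with Pa are listed for all of the 10, beside shares of tested genes, as levels only. Against S-BM, Pa lay above for TNFSF10 and CFLAR (21.7% of all genes) and below for TNFRSF10B and FADD (21.0%). Against Lat, Pa lay above for TNFSF10, FAS and CFLAR (35.9% of all genes) and below for TNFRSF10A, TNFRSF10B, TNFRSF10D and FADD (35.4%). Against M-BM, Pa lay above for TNFSF10, FAS, CFLAR and the barely detected TNFRSF11B (32.6% of all genes) and below for the 3 receptors TNFRSF10A, TNFRSF10B and TNFRSF10D (33.8%). FAS, TNFRSF10A and TNFRSF10D thus overlapped between Pa and S-BM and did not overlap between either of them and Lat, nor, except for TNFRSF10A in M-BM 2, M-BM.

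The other genes of the pathway were taken from a list of 96, of which 94 were in the tables and 68 tested. In Lat minus S-BM 20 rose and 25 fell (66.2% called, beside 59.7% of all genes tested, with a median log2 difference of −0.08 beside 0.01), and in M-BM minus S-BM 17 rose and 23 fell (58.8% called, beside 52.7%, with a median of −0.05 beside 0.01). The counts by role that follow stand beside 30.2% higher and 29.4% lower of all genes tested in Lat and 26.9% higher and 25.8% lower in M-BM, and with 2 to 15 tested genes a role nothing particular to a role is read from them. In M-BM minus Lat 1 of the 68 fell (1.47% called, beside 0.145% of all genes tested), a share that rests on 1 gene. This was GALNT6, an enzyme that attaches O-linked sugars, at 43.1 ± 6.5 in Lat and 23.6 ± 4.1 in M-BM (limma, adjusted p = 0.0306, and 0.0767 when S-BM was left out of the fit). Its call was lost without any 1 of Lat 1, Lat 2, Lat 3, Lat 4, M-BM 2, M-BM 3 or M-BM 4.

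Among ligands and receptors, both tested ligands rose in Lat: TNFSF9, which encodes 4-1BB ligand, 2.44-fold (adjusted p = 0.00113) and TNFSF15 3.05-fold (adjusted p = 0.00416). In M-BM TNFSF9 rose 2.71-fold, while TNFSF15 was at 10.6 ± 10.6 with M-BM 2 at 26.3 (adjusted p = 0.0515). Without M-BM 2 the M-BM difference of TNFSF15 was 0.48 on the log2 scale in place of 1.02 (adjusted p = 0.119), and without M-BM 1 or M-BM 4 it passed (adjusted p = 0.0194 and 0.0394). Both ligands passed the filter with no S-BM library at 10, and with no filter their adjusted p in Lat was 0.00309 for TNFSF9 and 0.0102 for TNFSF15. Of 3 tested receptors, TNFRSF12A, which encodes the TWEAK receptor, rose from 143.6 ± 34.5 in S-BM to 311.8 ± 54.3 in Lat and 278.1 ± 27.6 in M-BM (adjusted p = 6.64e-05 and 0.000307). TNFRSF21, a death domain receptor, fell (−0.83 and −0.54), and so did TNFRSF1A, the main receptor of tumour necrosis factor, by 1.16-fold and 1.15-fold (adjusted p = 0.0403 and 0.0497). Those 2 calls were lost in 11 and 13 of 23 alternatives, most of them fits without 1 library (adjusted p up to 0.117 without Lat 2 and 0.1002 without M-BM 1).

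In the signalling complex 6 of 15 tested genes rose and 4 fell in Lat, and 4 rose and 3 fell in M-BM. CYLD, a deubiquitinase that limits survival signalling, rose from 44.2 ± 1.6 in S-BM to 161.8 ± 16.1 in Lat and 138.6 ± 15.4 in M-BM (adjusted p = 1.92e-08 and 9.99e-08). TRAF2, an adaptor of receptor complexes, rose 2.71-fold and 2.28-fold, and its partner BIRC3, a ubiquitin ligase, 3.27-fold and 2.05-fold. BIRC2, the relative of BIRC3, rose by less (0.53 and 0.7 on the log2 scale). RNF31, the catalytic subunit of the linear ubiquitin ligase, fell (−0.84 and −0.78), whereas RIPK1, the kinase these enzymes modify, did not pass the test (−0.16 and −0.18).

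At the mitochondrial step, 5 of 14 tested death-promoting genes fell and 2 rose in each comparison with S-BM. BID, which CASP8 cleaves, fell from 28.0 ± 0.6 in S-BM to 16.1 ± 3.0 in Lat and 16.0 ± 1.2 in M-BM (adjusted p = 0.000144 and 0.000228). APAF1, the scaffold that activates CASP9, fell 2.10-fold and 1.71-fold, BMF 1.88-fold and 2.10-fold, and BAX and BOK also fell, while CYCS, cytochrome c, and DIABLO rose. All 3 tested restraining genes rose in both comparisons, namely MCL1 (1.84-fold and 1.54-fold, adjusted p = 3.19e-06 and 8.24e-05), BCL2L1 (1.47-fold and 1.37-fold, adjusted p = 0.00464 and 0.0169, the latter call lost without S-BM 2 or M-BM 1) and BCL2L2 (0.36 on the log2 scale in each).

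Of 5 tested caspases and their nuclease partners downstream, 4 fell and 1 rose in Lat, and 3 fell and 1 rose in M-BM. CASP6, an executioner caspase, fell (−0.98 and −0.78, adjusted p = 3.91e-06 and 4.33e-05), and so did CASP2 (−0.53 and −0.56). DFFA, which encodes the inhibitor of the apoptotic nuclease, fell in Lat (−0.39, adjusted p = 0.0249) and in M-BM was at −0.32 (adjusted p = 0.0671). Among inhibitors of caspases, BIRC5, survivin, rose (0.77 and 0.65) and BIRC6 fell (−0.38 and −0.34). XIAP, which blocks active caspases, did not pass the test (−0.21, adjusted p = 0.23, and −0.17, adjusted p = 0.348). Without S-BM 3 and S-BM 4 it fell (−0.47 and −0.43, adjusted p = 0.0112 and 0.0209).

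Of 8 tested genes that modify or shed surface receptors, 3 fell and 1 rose in Lat, and 4 fell and 2 rose in M-BM. MMP7, a protease known to release FAS ligand from the membrane, fell from 31.1 ± 19.1 in S-BM to 5.07 ± 1.74 in Lat and 7.55 ± 3.09 in M-BM (adjusted p = 7.85e-05 and 0.000673), with S-BM 2 at 59.8 and the other 3 S-BM libraries at 20.4 to 22.3. It passed the filter through the S-BM libraries and M-BM 1, and with no filter its adjusted p was 0.000332 and 0.0022. The sheddase ADAM10 fell (−0.95 and −0.67), and ADAM17 did not pass the test. GALNT3 did not pass the test, while GALNT6 fell in M-BM (−1.04, adjusted p = 4.87e-05) and in Lat was at −0.19 (adjusted p = 0.252).

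Of 15 tested transcription factors linked to these genes, 6 fell and 3 rose in Lat, and 5 fell and 2 rose in M-BM. IRF9, the DNA-binding subunit of the interferon complex ISGF3, fell from 45.0 ± 3.5 in S-BM to 23.3 ± 9.4 in Lat and 18.1 ± 4.2 in M-BM (adjusted p = 0.00122 and 0.000236). Its partner STAT2 fell (−0.94 and −0.79), as did IRF1 (−0.42 and −0.5) and FOXO1 (−0.96 and −0.87). DDIT3, which encodes the stress factor CHOP, known to act on the DR5 promoter, rose 3.37-fold and 2.97-fold (adjusted p = 1.37e-06 and 6.9e-06), and ATF4 rose by 0.89 and 0.81 on the log2 scale.

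**Figure D5:**
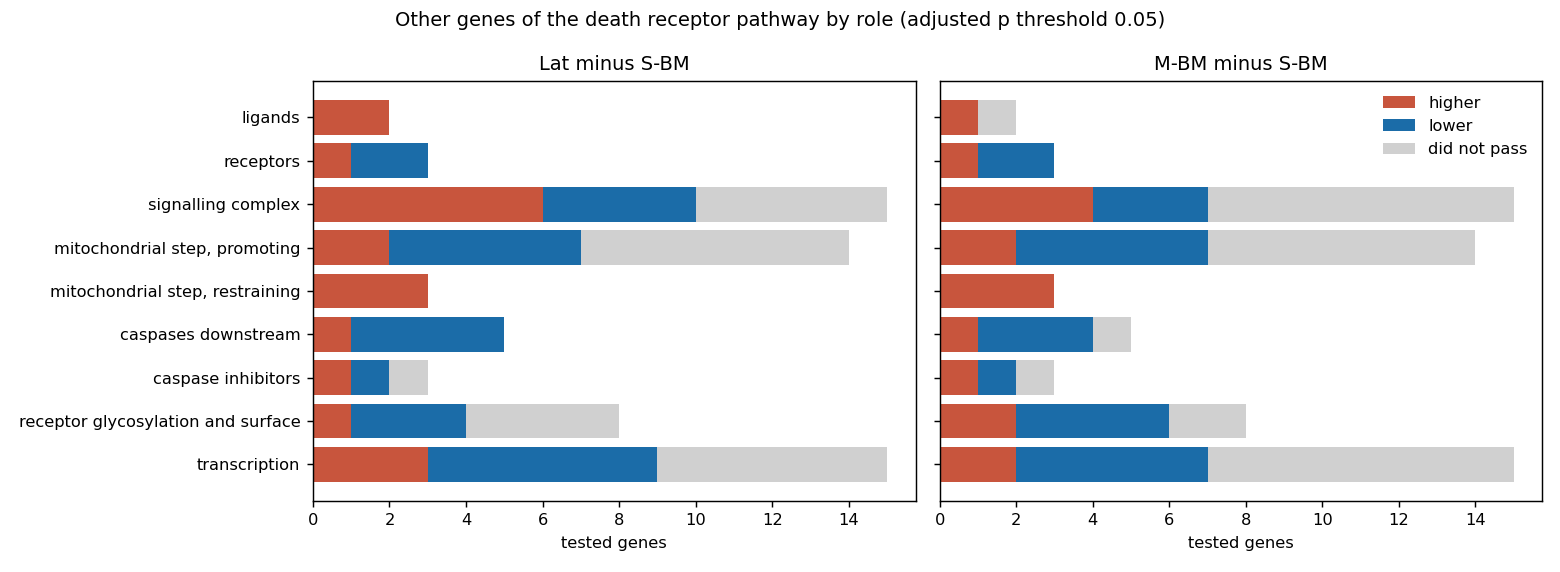
Number of tested pathway genes other than the 10 (x axis) by role (y axis) that were higher, lower or did not pass at an adjusted p of 0.05, for Lat minus S-BM and M-BM minus S-BM. All 3 restraining genes of the mitochondrial step are higher in both panels, and 4 of 5 downstream caspase genes are lower in Lat.

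The calls of TNFRSF10A, TNFRSF10B and CFLAR against S-BM held in all 23 alternatives, among them the fits without each library in turn, without S-BM 3 and S-BM 4 together, and on recovered reads. Without S-BM 3 and S-BM 4, FAS stood at −0.98 in Lat and −0.81 in M-BM (adjusted p = 0.00956 and 0.0293), and CASP10 at −1.96 and −1.61. Without M-BM 4 the M-BM difference was −0.94 for FAS, −0.50 for CFLAR and −1.96 for CASP10.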

How the data were processed

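Messenger RNA of cultured cells was sequenced in 15 libraries; per the labels' protocols, RNA was taken with an RNeasy kit and libraries made with TruSeq RNA v2, which does not mark strand. Alignment used Bowtie 0.12.2 and GRCh38, per the submitters' processing notes; counter, annotation and normalization: not given in the sources used here. Per gene and library, the authors deposited 1 normalized count (a signal), with column totals of 963150 to 1026297. All values were whole multiples of 1 read within 0.05 reads, so reads were recovered. The 12 libraries of S-BM, Lat and M-BM, from 1 table, were fitted jointly with limma 3.58.1 (R 4.3.3) on log2(value + 1), with a variance trend and 9 residual df, for 9646 genes at 10 or more in at least 4 of 12 libraries. Two-sided p-values were adjusted by Benjamini-Hochberg over all genes tested, with a threshold of 0.05. Pa, in a separate table, was multiplied by 1.0183, the median ratio over 13765 genes, and has no test. edgeR 4.0.16 and DESeq2 1.42.0 on recovered reads were alternatives. Lengths per kilobase are merged exons of the reference annotation, and positions come from a GRCh38 table in which 17545 names matched. Of the names, 27 had been turned into dates. Scripts were tested on simulated data. The genes and lists were chosen with earlier results of these data known. Named pathway genes are those called with at least a 2-fold change, up to 3 per role and comparison, plus CASP10, BID, XIAP, MCL1, BCL2L1, TNFRSF1A and FASLG, besides genes not reported here; others given only by a difference (such as TNFRSF21, BIRC2, RNF31, ADAM10 and STAT2) were chosen after their values were seen. Every pair of replicates differed by more than sampling noise (chi-square per degree of freedom at least 3.40, for S-BM 3 and 4). The labels do not say if shared replicate numbers pair libraries. Residuals of same-numbered libraries correlated at −0.272 to 0.319 and those of other pairs between groups at −0.305 to 0.322, which cannot decide it.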

Additional observations from a re-analysis of the deposited data

Results flagged for a closer look

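A gap test for a single sample far from the other 3 of its group was run on 89 groups of 4 libraries, over the 10 genes and the named pathway genes, and marked 6, where chance marks about 1 in 20 groups. Among the 10 genes it marked TNFRSF10C, listed at 0.154 in Lat 1 (3 reads) and at 0 in the other Lat libraries. FASLG had its single M-BM read in M-BM 4, at 0.0476. TNFSF15 was far above the other M-BM libraries in M-BM 2, at 26.3, and lowest of S-BM in S-BM 1, at 2.51. TRAF2 was highest of S-BM in S-BM 4, at 22.6, and MMP7 in S-BM 2, at 59.8.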

How the results depend on the processing

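Without TNFSF10, 6 of the 10 genes were tested, or 7 with a filter of 1 and 9 with no filter. Of these, 4 or 5 were called against S-BM under every alternative in both comparisons, and 0 between M-BM and Lat. The count was 5 where a lower filter or none let TNFRSF10D in, without S-BM 2 in Lat (CASP8) and without Lat 3 in M-BM (FADD). Over all genes, 7982 of 19464 were called in Lat and 6773 in M-BM with no filter. With DESeq2 these were 5903 and 5315 of 9646, and nothing particular to the 10 genes is read from the counts. A fit with the replicate number as a block called 4, 4 and 0 of the 6 tested genes other than TNFSF10. It called 42, 39 and 1 of the 68 tested pathway genes, beside 5675, 5002 and 13 of all 9646 genes tested. Whether the numbers pair the libraries is not known. Pathway genes called between M-BM and Lat numbered 0 with only these groups in the fit and 0 to 1 with each library left out. All genes called between M-BM and Lat were 14, and 26 with a filter of 1, 24 with none, 5 with only these groups in the fit, 141 with DESeq2, and 3 to 30 with each library left out; the cause was not tested. BCL2L1 lost its M-BM call without S-BM 2 (adjusted p = 0.0515), without M-BM 1 (0.0538) and without S-BM 3 and S-BM 4 (0.0633). TNFSF15 passed in M-BM under 7 of 23 alternatives, such as DESeq2 (adjusted p = 0.00234). Without scaling of Pa, its TNFSF10 ratios to S-BM, Lat and M-BM changed by under the spread of replicates. Low counts limit TNFRSF10C, TNFRSF11B and FASLG, for which no difference was detectable at this depth.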
